A study of Homo sapiens with 6 samples.

Results

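Rab GTPases are small proteins that mark the membranes of the secretory and endocytic pathways. The genes were taken from the array annotation by symbol: RAB followed directly by a number and at most a letter or AL, without pseudogenes and without interacting proteins such as the RAB11FIP family. Of 64 protein-coding Rab genes in the RefSeq annotation of GRCh38.p14, 57 had at least 1 probe set annotated to them alone, out of 18132 genes measured in all. The other 7 have no value of their own: RAB1B, RAB4B, RAB6C, RAB24, RAB40AL and RAB43 share every probe set with another gene, and RAB44 was matched to none.

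The values came from HCT116, a human colorectal carcinoma cell line, grown in RPMI-1640 with 10% fetal bovine serum and 1% penicillin-streptomycin. The 6 Affymetrix arrays were hybridised with total RNA from 3 samples labelled Ctrl, whose treatment is given as control, and 3 labelled CSF3. The gene CSF3 codes for granulocyte colony-stimulating factor. How it was applied or altered is not said in the labels, nor whether samples of a group were separate cultures, so p-values cover the spread among these samples alone, and that spread may be technical. The series title ties CSF3 to autophagy and to the p65 arm of NF-κB, and the comparison of CSF3 with Ctrl asks here how genes of membrane traffic differed between the groups.

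A Rab protein switches between a GTP-bound state, in which it recruits effectors such as motors, tethers and lipid kinases, and a GDP-bound state. Exchange factors (GEFs) load GTP, GTPase-activating proteins (GAPs) trigger its hydrolysis, and GDI proteins carry the lipid-anchored GDP form between membranes. Different members work at different membranes: RAB1 and RAB2 between endoplasmic reticulum and Golgi, RAB6 at the Golgi, RAB5 at early endosomes, RAB4 and RAB11 in recycling, and RAB7 at late endosomes, lysosomes and autophagosomes. An array measures RNA and shows neither the protein nor its nucleotide state.

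The arrays themselves differed between the groups, and a rise or fall here means relative to other genes on the same array under the authors' scaling. The lower quartile of the log2 signal was 2.18 to 2.19 on the Ctrl arrays and 2.40 to 2.43 on the CSF3 arrays. At the upper quartile the order was turned, with 5.63 on Ctrl and 5.37 to 5.40 on CSF3. Hybridisation control probe sets had a median of 6.74 to 6.87 on the Ctrl arrays and 8.30 to 8.39 on the CSF3 arrays. For GAPDH the 3′ probe set exceeded its 5′ counterpart, a sign of RNA integrity and of the extent of labelling, by 0.30 to 0.31 on the Ctrl and by 0.68 on the CSF3 arrays. The part of these differences in the results was not tested. Of 10 epithelial and colon markers, KRT8 and KRT18 had mean log2 signals of 6.37 and 7.26 on the Ctrl arrays, while EPCAM and CDH1 had 3.63 and 2.20. The other epithelial markers ranged from 1.43 to 4.45 on the Ctrl arrays, and the 11 measured leukocyte, fibroblast and endothelial markers from 1.42 to 3.85. On the CSF3 arrays all 11 of these read higher, from 1.66 to 4.41, among them COL1A2 (2.16 to 3.11) and PECAM1 (3.61 to 4.36), as did 8 of the 10 epithelial markers, while KRT8 read 5.06 and EPCAM 3.30. The part of these shifts in the Rab changes was not tested. On the Ctrl arrays, apart from KRT8, KRT18 and CDX2 (4.45), the epithelial markers lay within the range of the other cell types' markers, so these markers, many of them dim, say little on the labelled cell type.

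Rab genes changed in both directions and mostly by small amounts. Among the 57 genes, 20 rose and 16 fell from Ctrl to CSF3 (limma, adjusted p under 0.05), while 21 did not pass. These 36 calls are 63.2% of the Rab genes, where 72.5% of all genes were called. Over all genes tested, 45.4% rose and 27.1% fell, against 35.1% and 28.1% of the Rab genes, so the share of Rab genes that fell was near that of all genes. The median change of the Rab genes was 0.07 on the log2 scale (CSF3 minus Ctrl), beside 0.16 over all genes. On the brightest probe sets the largest fall was that of RAB22A, -1.03 ± 0.06 (SE), and the largest rise that of RAB30, 0.96 ± 0.10. The value of RAB22A rests on 1 of its 2 probe sets and was -0.50 over both, whereas RAB29, with -0.98, had -1.27 over its 5. The signals of the Ctrl and CSF3 arrays did not overlap for 41 Rab genes, or 71.9%, where 76.2% of all genes did not overlap.

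Direction varied with signal level, among Rab genes as among all genes, though the shares that fell differed in the range from 4 to 6. Of the 15 Rab genes with a mean log2 signal under 4, 8 rose and 0 fell by limma, where 65.2% of all genes at that level rose and 5.46% fell. In the range from 4 to 6, 7 of 15 Rab genes rose and 1 fell, against 36.3% and 38.7% of all genes. Among the 27 Rab genes at 6 and over, 5 rose and 15 fell, against 22.7% and 50.4% of all genes. Quantile and cyclic loess normalization are made to even out shifts of this kind between arrays. The median change over all genes was 0.13 after quantile and 0.10 after cyclic loess normalization, beside 0.16 as deposited. The part of scaling in the trend with level was not tested. After quantile normalization 23 Rab genes rose and 9 fell (39.2% and 20.1% of all genes), and after cyclic loess normalization 21 rose and 9 fell (36.3% and 21.4% of all genes). Under all 3 scalings 16 rises and 8 falls were shared. The 8 shared falls were RAB4A, RAB5C, RAB7A, RAB14, RAB15, RAB22A, RAB26 and RAB29. Falls of RAB5B, RAB6A, RAB8B, RAB10, RAB11B, RAB28, RAB38 and RAB40B were called as deposited but not after both normalizations, and the same was so of the rises of RAB7B, RAB17, RAB25 and RAB40A.

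**Figure D1:**
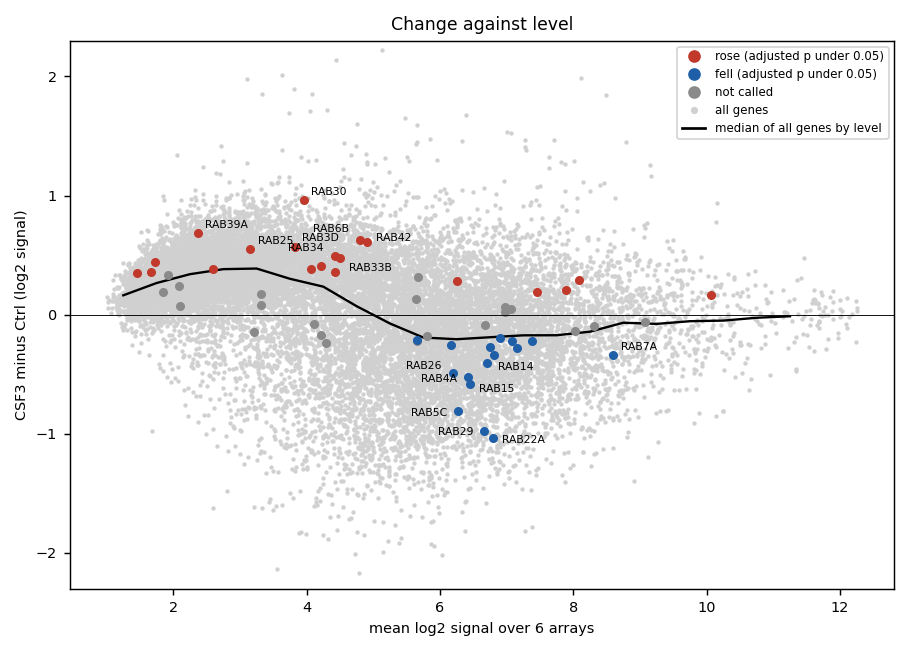
Change in log2 signal (CSF3 minus Ctrl, vertical axis) against mean log2 signal over 6 arrays (horizontal axis) for 57 Rab genes in colour and all 18132 genes in grey, with the median of all genes by level as a line. Rab genes that rose lie mostly on the left, where the line is above 0, and those that fell lie between about 5.6 and 8.6, where it is below 0.

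The 8 largest falls past the threshold were chosen among genes whose groups did not overlap, so their separation is no finding. RAB22A, which acts in early endosomes and recycling, read 7.28, 7.39 and 7.29 (log2) on the Ctrl arrays and 6.34, 6.21 and 6.30 on the CSF3 arrays. Each CSF3 array was thus well below each Ctrl array, a 2.05-fold difference on this probe set (log2 change -1.03 ± 0.06, limma adjusted p = 1.97e-05). RAB29, which recruits the kinase LRRK2 to stressed lysosomes and the Golgi, read 7.13, 7.17 and 7.17 on the Ctrl and 6.37, 6.03 and 6.13 on the CSF3 arrays. It fell by 0.98 ± 0.09 (limma adjusted p = 9.14e-05), or 1.97-fold, and the CSF3 arrays spread more widely (SD 0.17 against 0.02). RAB5C, one of the early endosome fusion GTPases, read 6.75, 6.68 and 6.60 against 5.88, 5.81 and 5.92, a 1.75-fold fall (-0.81 ± 0.06, limma adjusted p = 4.91e-05).

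The remaining 5 of these falls were between 1.27-fold and 1.50-fold. RAB15, which acts in recycling endosomes, read 6.73, 6.76 and 6.74 on the Ctrl and 6.18, 6.11 and 6.19 on the CSF3 arrays (-0.58 ± 0.05, limma adjusted p = 7.94e-05). RAB4A, a GTPase of fast recycling, read 6.68, 6.65 and 6.69 against 6.24, 6.16 and 6.07. Its difference of -0.52 ± 0.06 was many times the spread within either group. RAB26, linked to secretory granules and to the autophagy of synaptic vesicles, read 6.42, 6.46 and 6.42 against 5.87, 5.95 and 6.01 (-0.49 ± 0.06). RAB14, which acts between the trans-Golgi and endosomes, read 6.92, 6.91 and 6.92 against 6.53, 6.44 and 6.54 (-0.41 ± 0.05). RAB7A, the GTPase of late endosomes and of autophagosome-lysosome fusion, read 8.79, 8.79 and 8.74 against 8.55, 8.37 and 8.37, which is -0.34 ± 0.06. After quantile normalization these 8 changes ran from -0.80 for RAB22A to -0.17 for RAB14 and all stayed past the threshold.

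The 8 largest rises lay at lower signals. RAB30, a Golgi GTPase, read 3.56, 3.32 and 3.57 on the Ctrl and 4.61, 4.36 and 4.37 on the CSF3 arrays, a rise of 0.96 ± 0.10 (limma adjusted p = 0.000157). RAB39A, linked to endosomal and phagosomal traffic and to the Golgi, read 1.98, 1.98 and 2.11 against 2.66, 2.75 and 2.72 (0.68 ± 0.06). RAB6B, the form of RAB6 enriched in brain, read 4.43, 4.49 and 4.55 against 5.23, 4.98 and 5.14 (0.63 ± 0.08). These 3 lay apart between the groups, as their choice required. No detection calls were used, so a signal as low as that of RAB39A is not known to lie above background, and no fold is given for these rises.

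RAB42, a member whose function is little described, read 4.62, 4.61 and 4.58 against 5.03, 5.22 and 5.37 (0.61 ± 0.09). RAB3D, a GTPase of exocrine secretory granules, read 3.60, 3.46 and 3.54 against 3.86, 4.33 and 4.13 (0.57 ± 0.12). RAB25, the epithelial member of the RAB11 family, read 2.67, 2.89 and 3.08 against 3.26, 3.67 and 3.36. Its rise of 0.55 ± 0.13 (limma adjusted p = 0.00769) narrowed to 0.35 after cyclic loess normalization, where it missed the threshold (limma adjusted p = 0.0503). RAB34, which acts at the Golgi and in making cilia, read 4.19, 4.14 and 4.20 against 4.60, 4.56 and 4.84 (0.49 ± 0.08). RAB33B, a Golgi GTPase that binds the autophagy protein ATG16L1, read 4.22, 4.31 and 4.27 against 4.88, 4.53 and 4.82 (0.47 ± 0.09, limma adjusted p = 0.00310). The highest limma adjusted p among these 8 rises was that of RAB25. RAB33B and RAB39A each rose on 1 of 2 probe sets, with 0.04 and 0.12 on the others. RAB34 rose on 1 of 3, with 0.06 and 0.31 on the others, and RAB6B on 2 of 3. RAB30 rose on both of its probe sets, and RAB3D, RAB25 and RAB42 have 1 probe set each.

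**Figure D2:**
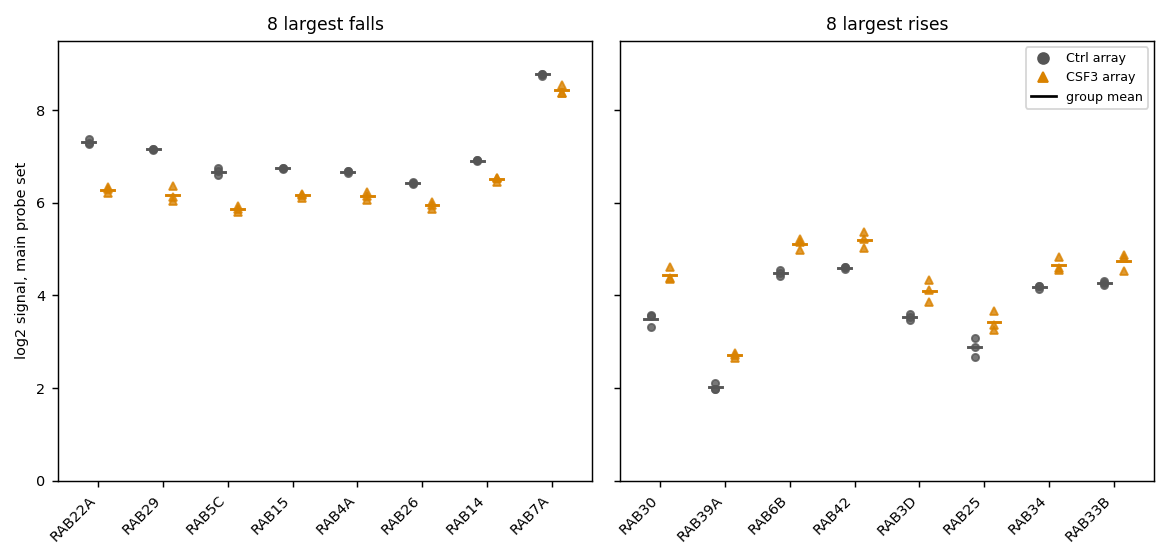
Log2 signal of the main probe set on each array (vertical axis) for the 8 Rab genes with the largest fall and the 8 with the largest rise, with Ctrl arrays as circles, CSF3 arrays as triangles and group means as bars. The 16 genes were chosen with groups apart, and the plot shows the sizes, with RAB22A near 7.3 against 6.3 and RAB30 near 3.5 against 4.4.

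The RefSeq promoter windows of the genes at both extremes (the 2 largest falls and the 2 largest rises) are printed here to show the sequence at the starts of these genes, 300 bases each on GRCh38.p14, most of them upstream of the annotated start. Capitals mark matches, on either strand, to any of 8 motifs. These were the GC box with the letters GGGCGG, the E-box with the letters CACGTG, the sequence known as the CCAAT box, the AP-1 motif written TGANTCA, the cyclic AMP element written TGACGTCA, the core of the Golgi stress element written ACGTGGC, the κB consensus and the endoplasmic reticulum stress element. RAB30 has 3 annotated windows, of which 1 is shown.
RAB22A, chr20:58309465-58309764, plus strand: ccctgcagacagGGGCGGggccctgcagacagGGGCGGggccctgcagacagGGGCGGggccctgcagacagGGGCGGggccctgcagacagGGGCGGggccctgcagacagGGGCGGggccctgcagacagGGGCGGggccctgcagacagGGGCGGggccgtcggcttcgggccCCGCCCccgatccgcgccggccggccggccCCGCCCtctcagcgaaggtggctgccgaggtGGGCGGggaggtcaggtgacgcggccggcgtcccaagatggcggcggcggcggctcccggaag
RAB29, chr1:205775433-205775732, minus strand: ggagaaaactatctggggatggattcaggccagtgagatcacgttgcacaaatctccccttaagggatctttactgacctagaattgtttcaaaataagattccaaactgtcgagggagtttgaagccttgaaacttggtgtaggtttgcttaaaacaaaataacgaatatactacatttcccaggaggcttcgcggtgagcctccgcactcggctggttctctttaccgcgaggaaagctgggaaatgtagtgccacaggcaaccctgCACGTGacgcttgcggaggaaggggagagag
RAB30, chr11:83071848-83072147, minus strand: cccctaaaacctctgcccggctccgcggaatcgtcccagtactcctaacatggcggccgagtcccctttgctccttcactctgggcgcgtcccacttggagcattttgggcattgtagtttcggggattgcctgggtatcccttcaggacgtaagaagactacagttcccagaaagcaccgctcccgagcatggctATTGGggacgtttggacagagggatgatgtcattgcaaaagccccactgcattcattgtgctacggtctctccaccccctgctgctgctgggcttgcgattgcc
RAB39A, chr11:107928198-107928497, plus strand: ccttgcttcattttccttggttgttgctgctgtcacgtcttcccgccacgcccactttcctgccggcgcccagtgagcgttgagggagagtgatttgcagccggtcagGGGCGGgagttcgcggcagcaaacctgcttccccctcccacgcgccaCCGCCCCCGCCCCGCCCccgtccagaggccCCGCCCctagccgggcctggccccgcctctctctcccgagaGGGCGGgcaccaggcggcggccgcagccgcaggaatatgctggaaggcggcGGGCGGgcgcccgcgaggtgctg

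These windows differ in composition. That of RAB22A is 80.3% G and C and opens with 8 direct copies of a 20-base unit, each carrying a GC box, among 11 GC box matches in all. The RAB29 window is 48.3% G and C and holds a single match, to the E-box, the letters bound by TFEB and other basic helix-loop-helix factors. The RAB30 window holds 1 inverted CCAAT and the RAB39A window 7 GC boxes, some of which overlap. RefSeq windows were found for 45 of the 57 Rab genes, 63 windows in all. A GC box was in 71.4% of Rab windows and 45% of all 35116 windows of that length. By direction, 13 of 15 windows of genes that fell held one, 13 of 24 of genes that rose and 19 of 24 of genes not called, so the uncalled genes were close to those that fell. Rab windows were also richer in G and C, with a median of 63.0% against 58.7% of all windows. That median was 68.3% for genes that fell, 60.7% for genes that rose and 63.0% for genes not called. The part of composition in the GC box shares was not tested, and a gene with several windows counts more than once. The κB consensus was in 6.35% of Rab windows and 5.91% of all windows, and the Rab genes with it were RAB6A, RAB28, RAB32 and RAB34. An E-box was in 7.94% against 7.26% of windows, CCAAT in 33.3% against 34.6%, AP-1 in 12.7% against 7.71%, the cyclic AMP element in 1.59% against 1.85% and the Golgi stress core, which can overlap an E-box, in 3.17% against 3.22%. The endoplasmic reticulum stress element, which contains a CCAAT, was in 0 of the 63 Rab windows and 0.0769% of all. These matches are descriptions of letters, not binding sites.

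The counts by role are small and were not matched for signal level. Each is to be read against the 45.4% of all genes that rose and the 27.1% that fell. The list for the endoplasmic reticulum and Golgi, which also holds members such as RAB39A that act at endosomes as well, has 16 measured genes: 8 rose, 1 fell and 7 were not called, with a median change of 0.26 beside 0.16 over all genes. The 50% that rose is near the share of all genes. A mean signal under 6 was seen for 11 of the 16. Of all genes, 5.46% fell at a signal under 4 and 38.7% at 4 to 6. The part of level in this group was not tested. Besides RAB30, RAB39A, RAB6B, RAB34 and RAB33B, the ones that rose were RAB6D (0.44 ± 0.07), RAB19 (0.41 ± 0.09) and RAB2A (0.19 ± 0.05), the last with other probe sets that fell. RAB33A (0.07 ± 0.12), RAB36 (-0.17 ± 0.08), RAB39B (0.17 ± 0.09) and RAB41 (0.33 ± 0.13) were not called. RAB6A, which directs transport to and within the Golgi, read 7.50, 7.48 and 7.51 on the Ctrl and 7.38, 7.14 and 7.31 on the CSF3 arrays. Its groups were apart and it fell by 0.22 ± 0.07 (limma adjusted p = 0.0232), but the change was -0.01 after quantile normalization, and leaving out any 1 Ctrl array ended the call (limma adjusted p from 0.0578 to 0.0694). RAB1A, which starts transport from the endoplasmic reticulum and the growth of autophagosomes, read 9.07, 9.17 and 9.10 against 9.08, 8.98 and 9.09. These overlapped, and -0.06 ± 0.06 missed the threshold (limma adjusted p = 0.382). RAB18, a GTPase of lipid droplets and the endoplasmic reticulum, had a change of -0.09 ± 0.05 on its brightest probe set, which was not called, but 5 of its 10 probe sets fell and 0 rose, and their mean fell by 0.18 (limma adjusted p = 0.00647). RAB2B had a change of 0.02 ± 0.06, not past the threshold as deposited. After quantile normalization RAB2B rose by 0.25 (limma adjusted p = 0.00476).

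Early endosome genes included RAB22A and RAB5C, described above. This group of 7 had 1 rise, 3 falls and 3 genes not called. The third fall was that of RAB5B (-0.28 ± 0.05), which shrank to -0.06 after quantile normalization and was no longer called. RAB5A, the best known regulator of early endosome fusion, read 7.83, 7.76 and 7.75 on the Ctrl and 7.99, 7.99 and 7.98 on the CSF3 arrays. It was higher on every CSF3 array, by 0.20 ± 0.05 (limma adjusted p = 0.00838), the opposite sign to RAB5B and RAB5C, although the mean over its probe sets was lower. RAB20, RAB21 and RAB31 had changes of 0.13 ± 0.09, 0.07 ± 0.06 and 0.08 ± 0.06 and were not called as deposited. After quantile normalization RAB20 and RAB21 rose by 0.38 and 0.29 (limma adjusted p = 0.00552 and 0.00272).

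Recycling and delivery to the surface had 6 falls among 12 genes, with 4 rises and a median of -0.19. All 6 that fell had a mean signal of 6 or over, where 50.4% of all genes fell. The 12 genes include dimmer ones, so their share that fell cannot be set against that value. The part of signal level was not tested. The falls were RAB15, RAB4A and RAB14 and, lost after quantile normalization, RAB11B (-0.34 ± 0.06), RAB10 (-0.27 ± 0.06) and RAB8B (-0.20 ± 0.06). RAB11A, the central GTPase of recycling endosomes, read 7.95, 7.95 and 7.93 on the Ctrl and 8.29, 8.21 and 8.20 on the CSF3 arrays. This rise of 0.29 ± 0.05 (limma adjusted p = 0.00189) did not overlap between groups, but the mean over its probe sets had the opposite sign. RAB13, a tight junction GTPase, rose by 0.17 ± 0.05, a call lost without Ctrl array 1 or 3 (limma adjusted p = 0.0681 and 0.0632), and RAB17, an epithelial member, read 1.56, 1.44 and 1.47 against 1.98, 1.69 and 1.86 (0.36 ± 0.08), a rise not called after either normalization. RAB35, which acts in fast recycling, had -0.18 ± 0.08 on its brightest probe set and was not called. Of its 5 probe sets, however, 3 rose, by 0.21, 0.22 and 0.44. RAB8A, which delivers vesicles to the surface and the cilium, read 7.03, 7.05 and 7.03 against 7.23, 6.99 and 7.02. Its groups overlapped, and 0.04 ± 0.07 was not called as deposited (limma adjusted p = 0.591), whereas after quantile normalization it rose by 0.27 (limma adjusted p = 0.00960).

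Late endosome, lysosome and autophagy genes were split. Of 6 measured, RAB29 and RAB7A fell, RAB7B (0.38 ± 0.07) and RAB9A (0.28 ± 0.06) rose, and RAB9B (-0.14 ± 0.09) and RAB12 (-0.14 ± 0.06) were not called, though RAB9B fell after both normalizations. RAB9A, which returns mannose 6-phosphate receptors from late endosomes to the Golgi, read 6.16, 6.04 and 6.13 against 6.47, 6.36 and 6.35. Its rise grew to 0.54 after quantile normalization, while that of the dimmer RAB7B shrank to 0.17 and was no longer called. RAB7B rose on 1 of its 2 probe sets as deposited, with 0.13 on the other. RAB24, an atypical member linked to autophagy, has no probe set of its own.

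Among 10 genes of regulated secretion and lysosome-related organelles, there were 3 rises, 2 falls and 5 genes not called. RAB32, which acts in melanosome formation and at mitochondria, rose by 0.39 ± 0.07 and RAB37, linked to granule secretion, by 0.35 ± 0.06, next to RAB3D. RAB38, the close relative of RAB32, fell by 0.22 ± 0.06, a call lost after both normalizations, while the fall of RAB26 was called under both. RAB27A, which docks lytic granules and exosome-forming bodies, read 4.43, 4.43 and 4.39 on the Ctrl and 3.95, 4.23 and 4.34 on the CSF3 arrays. All CSF3 arrays were lower, but they spread widely, and -0.24 ± 0.10 missed the threshold (limma adjusted p = 0.0584). RAB27B had a change of 0.19 ± 0.09, RAB3B -0.22 ± 0.13 and RAB3C 0.24 ± 0.13 on their brightest probe sets, none of them called. The other probe set of RAB3B fell by 0.58 (limma adjusted p = 0.000249), with -0.37 after quantile normalization. RAB3A, a GTPase of synaptic vesicles, had 0.32 ± 0.13 on its brightest probe set and was not called as deposited (limma adjusted p = 0.0528). It rose by 0.57 after quantile and 0.53 after cyclic loess normalization (limma adjusted p = 0.00902 and 0.0124), and its other 2 probe sets rose by 0.60 and 0.66 as deposited. RAB28, a ciliary GTPase, fell by 0.25 ± 0.06 as deposited, with 0.01 after quantile normalization, and RAB23, a brake on hedgehog signalling at the cilium, had -0.07 ± 0.12. In the RAB40 branch, which recruits ubiquitin ligases, RAB40A rose by 0.35 ± 0.11 with overlapping groups, RAB40B fell by 0.21 ± 0.06 and RAB40C had -0.09 ± 0.06. The RAB40A call was lost when any of 4 arrays was left out (Ctrl 1 or 3, CSF3 1 or 2, limma adjusted p from 0.0669 to 0.0756), and the RAB40B change was 0.05 after quantile normalization.

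**Figure D3:**
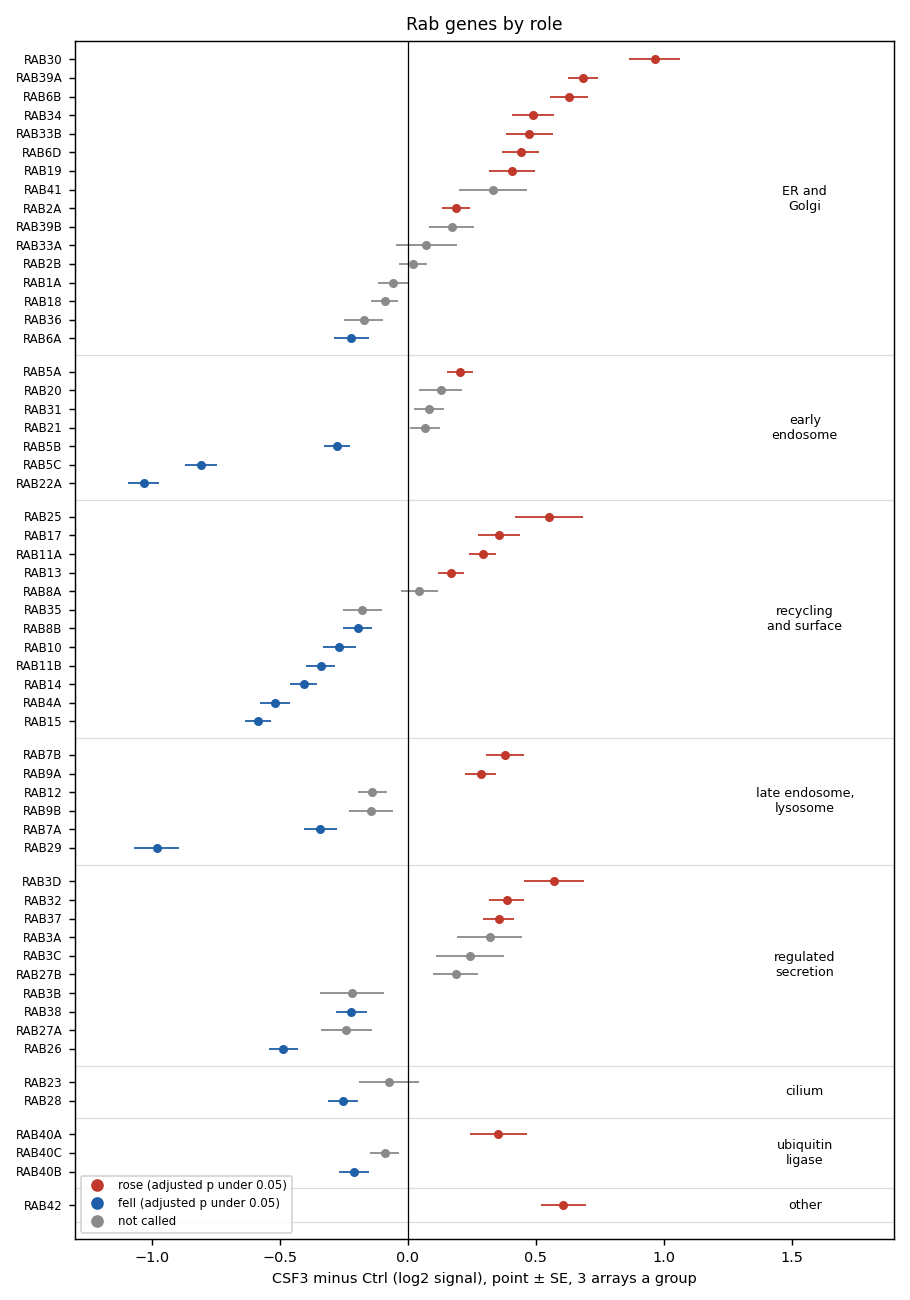
Change in log2 signal (CSF3 minus Ctrl, horizontal axis, point ± SE of the limma fit, 3 arrays a group) for each of the 57 Rab genes, grouped by role, with rises in red, falls in blue and genes not called in grey. The endoplasmic reticulum and Golgi group has 8 red points and 1 blue, and the recycling and surface group 4 red and 6 blue.

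Close relatives are given side by side here on their brightest probe sets, with no test of the difference. Within RAB5, RAB5A had 0.20, RAB5B -0.28 and RAB5C -0.81, but the mean over the probe sets of RAB5A was -0.14 and its brightest probe set ending in neither _x_at nor _s_at gave -0.44, so RAB5A is not shown to have risen against the others. Within the RAB11 family, RAB11A had 0.29, or -0.23 over all its probe sets, RAB11B -0.34, or 0.07 over all its probe sets, and RAB25, with 1 probe set, 0.55. RAB6A and RAB6B had -0.22 and 0.63, and RAB32 and RAB38 had 0.39 and -0.22, where the falls of RAB6A and RAB38 were not called after either normalization. In the pairs RAB9A and RAB9B (0.28 and -0.14), RAB8A and RAB8B (0.04 and -0.20) and RAB27A and RAB27B (-0.24 and 0.19), at least 1 member was not called as deposited. A difference in direction is thus not shown for these pairs as deposited, nor is its absence. After quantile normalization RAB9A rose (0.54) and RAB9B fell (-0.27), but the other probe sets of RAB9B had rises of 0.33 and 0.92 as deposited.

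Most Rab genes are read by several probe sets, and these did not always agree. The 57 genes have 161 single-gene probe sets, of which 43 rose, 55 fell and 63 were not called, against 36.7% and 28.8% of all 44988 single-gene probe sets rising and falling. Of 40 genes with several probe sets, 8 had probe sets called in both directions, 20%, beside 14.5% of the 11734 such genes in all. These were RAB2A, RAB5A, RAB6A, RAB8B, RAB11A, RAB11B, RAB12 and RAB14. Probe sets of one gene can lie in different exons or 3′ ends, and their positions were not used here.

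RAB29 was the clearest case of agreement. All 5 of its probe sets fell, by 0.98 to 1.71, and after quantile normalization the changes ran from -0.74 to -1.66. Every probe set also fell for RAB5C (3 probe sets, -0.33 to -0.81), RAB7A (3, -0.34 to -0.45), RAB10 (2, -0.27 and -1.21) and RAB28 (3, -0.25 to -0.71), while both of RAB30 rose (0.62 and 0.96). RAB22A, the largest fall, rests on 1 of 2 probe sets: the brighter gave -1.03 and the other, at a mean of 6.59, gave 0.04 ± 0.05, which was not called (limma adjusted p = 0.559).

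RAB2A was the clearest case of disagreement. Its brightest probe set rose by 0.19, while the other 3 fell, with -0.48 at a mean signal of 7.16, -1.05 at 5.24 and -1.36 at 3.23. When all probe sets of a gene were averaged, RAB2A fell by 0.68 (limma adjusted p = 1.96e-05), so it has no settled direction. The same reversal was seen for RAB11A, whose 4 probe sets ran from 0.29 to -0.65 and averaged -0.23 (limma adjusted p = 0.00542), and for RAB5A, with 0.20 to -0.44 and an average of -0.14 (limma adjusted p = 0.0193). RAB6A had 5 probe sets that fell, 2 dim ones that rose and 1 not called. In RAB14, 3 probe sets fell and 1 rose by 0.29. RAB27A, not called on its brightest probe set, fell on 3 of the other 5, by 0.30, 0.33 and 0.93. RAB9B had -0.14 on its brightest probe set and rises of 0.33 and 0.92 on the others. RAB1A, RAB23, RAB31, RAB39B and RAB40C were not called on their brightest probe sets. Each had 1 other probe set that was called, with -0.23, -0.50, 0.48, 0.30 and 0.26 in that order.

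**Figure D4:**
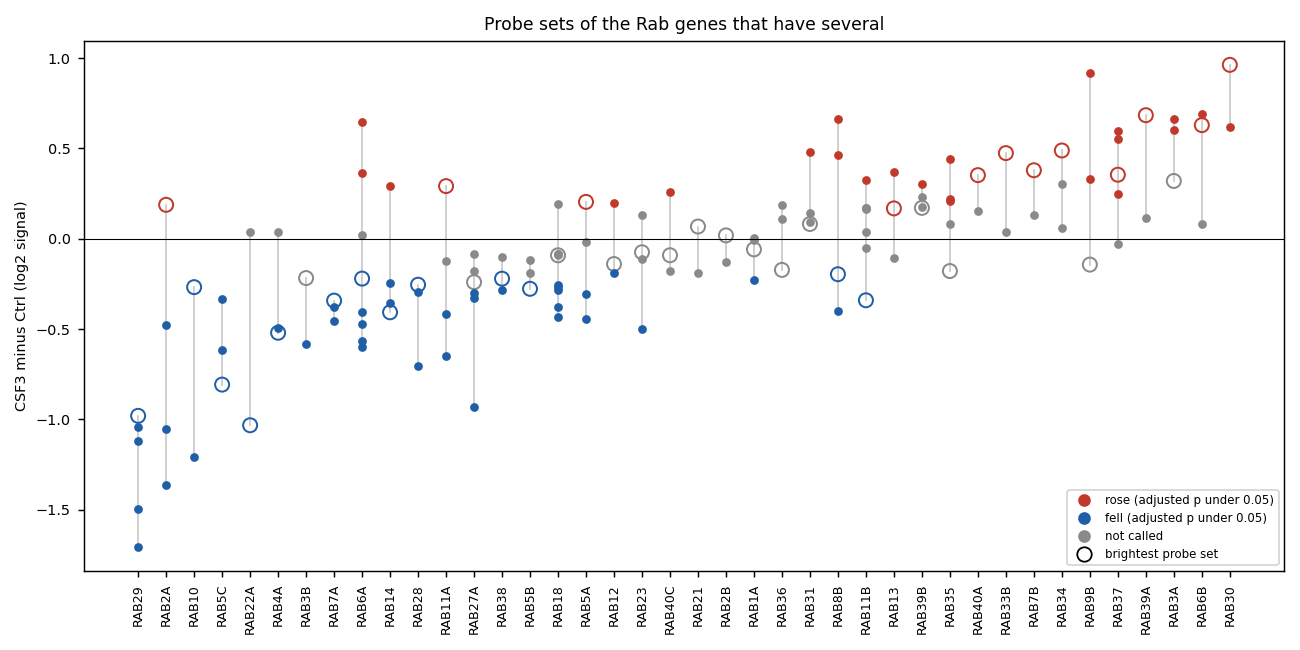
Change in log2 signal (CSF3 minus Ctrl, vertical axis) of every single-gene probe set of the 40 Rab genes with several, ordered by the median, with rises in red, falls in blue, probe sets not called in grey and the brightest probe set as an open circle. The 5 probe sets of RAB29 all lie at -0.98 or lower, whereas those of RAB2A run from 0.19 to -1.36.

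Genes that load, unload, deliver or read out Rab GTPases had more falls than rises in the deposited values. From the lists 148 were measured: 44 rose (29.7%, against 45.4% of all genes), 66 fell (44.6%, against 27.1%) and 38 were not called, and the median change was -0.11 beside 0.16 over all genes. After quantile normalization 51 rose and 40 fell, with a median of 0.01, so that falls no longer outnumbered rises, and after cyclic loess normalization 45 rose and 46 fell. The share that fell stayed above that of all genes. It was 40 of 148 (27%) against 20.1% after quantile and 31.1% against 21.4% after cyclic loess normalization. These shares were not matched for signal level. Of all genes as deposited, 5.46% fell under a mean signal of 4, 38.7% from 4 to 6 and 50.4% at 6 and over. The part of level in the falls of the regulators and effectors was not tested.

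Exchange factors had 14 rises and 19 falls (40.4%) among 47 measured. The 3 with the smallest p all fell. SBF2, a myotubularin-related exchange factor for RAB21 and RAB28, read 5.94, 5.94 and 5.96 on the Ctrl and 4.58, 4.45 and 4.50 on the CSF3 arrays (-1.44 ± 0.05, limma adjusted p = 8.45e-06), and all 3 of its probe sets fell. TRAPPC12, a subunit of the TRAPP complex that acts on RAB1, fell by 1.02 ± 0.06, and the DENN-domain gene DENND11 fell by 1.11 ± 0.07. GAPs had 10 rises and 15 falls (45.5%) among 33. TBC1D4, which holds RAB10 and RAB8A inactive until insulin acts, fell by 0.99 ± 0.05 and TBC1D8B by 1.29 ± 0.08. TBC1D14, which binds RAB11 and restrains autophagosome formation, fell by 0.82 ± 0.06. Each of these GAPs fell on 1 of its 2 probe sets. The other probe set gave -0.17 for TBC1D4, -0.09 for TBC1D8B and 0.16 for TBC1D14. On the brightest probe sets, the 6 falls named here among exchange factors and GAPs were past the threshold after quantile normalization too.

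Of 9 genes of prenylation and membrane delivery, 2 rose and 5 fell (55.6%). CHML, which presents Rab proteins for prenylation, fell by 0.80 ± 0.07, GDI2, which extracts them from membranes, by 0.38 ± 0.05 on a signal of 10.0 and all 5 probe sets, and ICMT, a methyltransferase of prenylated proteins, by 0.39 ± 0.06. The ICMT call was lost after quantile normalization (-0.12, limma adjusted p = 0.0820), and CHML read 0.35 on its brightest probe set whose name ends in neither _x_at nor _s_at (limma adjusted p = 0.0567). RABGGTB, the catalytic subunit of the Rab prenyltransferase, rose by 0.49 ± 0.08 and was named after its value was seen.

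Effectors had 18 rises and 27 falls (45.8%) among 59. RABEP1, which encodes rabaptin-5, an effector of RAB5 and RAB4, read 7.20, 7.16 and 7.12 on the Ctrl and 5.41, 5.65 and 5.70 on the CSF3 arrays. It fell by 1.57 ± 0.08 (limma adjusted p = 1.39e-05), and its 4 probe sets all fell, by 0.85 to 1.57. Its binding partner RABGEF1, an exchange factor for RAB5, rose by 0.83 ± 0.07 and was also named after its value was seen. This was the largest rise among the exchange factors on the brightest probe sets. RABGEF1 rose on 1 of its 2 probe sets, and the other gave 0.32 and was not called. EHBP1, an effector of RAB8 and RAB10, fell by 1.40 ± 0.06, and RAB11FIP2, an effector of RAB11 that binds myosin V, fell by 1.24 ± 0.07. EHBP1 fell on 2 of its 4 probe sets, with a highest change of 0.07, and RAB11FIP2 on 3 of 4. After quantile normalization the falls of RABEP1, EHBP1 and RAB11FIP2 were -1.33, -1.17 and -1.07.

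**Figure D5:**
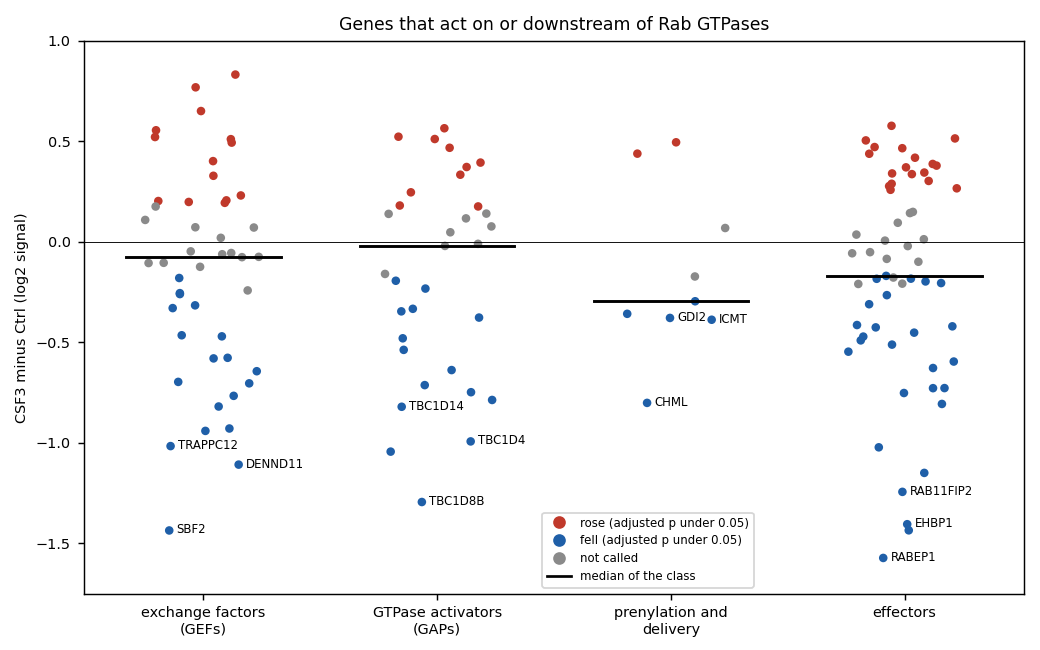
Change in log2 signal (CSF3 minus Ctrl, vertical axis) of the 47 exchange factor, 33 GTPase activator, 9 prenylation and delivery and 59 effector genes measured, with rises in red, falls in blue, genes not called in grey, class medians as bars and the 3 genes of smallest p in each class named. The lowest named points are RABEP1 at -1.57, SBF2 at -1.44 and EHBP1 at -1.40, next to an unnamed effector, and all 4 class medians lie below 0 as deposited.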

How the data were processed

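Biotin-labelled total RNA was run on Affymetrix arrays, per the labels. The authors deposited 1 value per probe set for 49395 probe sets and 6 arrays, taken as log2 values from their range (0.81 to 12.65); the base, background correction, summarisation and normalization method are not stated in the sources used here. With another base every fold would change and the tests would not. Precision is limited by the number of arrays. Probe sets with several genes (1832), none (2473) or controls (102) were left out, which left 44988.

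The probe set with the highest mean stood for its gene. CSF3 minus Ctrl was fitted over all 18132 genes, and separately over all single-gene probe sets, using limma 3.58.1 (lmFit, then eBayes; R 4.3.3), Benjamini-Hochberg adjustment and a threshold of 0.05. Values are means or single arrays, with the SE of the fit. Array values were given for the 8 largest non-overlapping falls and rises past the threshold, and for RAB1A, RAB5A, RAB6A, RAB7A, RAB8A, RAB11A, RAB24, RAB25, RAB27A and RAB33B, and of each regulator list the 3 genes of smallest p were named. The members and lists were chosen with earlier results of these data known, and the promoter motifs after the changes were seen. On simulated data for CSF3 against Ctrl over 18132 genes, the fit recovered 12%, 52%, 90% and 100% of 50 genes each changed by 0.25, 0.5, 1 and 2, with 6 false calls. No other genes were changed there, whereas 72.5% of all genes were called in the data. The adjustment is less strict with so many calls, so these shares and false calls do not carry over to the data. The alternatives were quantile and cyclic loess normalization, subtraction of array medians, dropping the dimmest genes or the _x_at and _s_at probe sets, averaging a gene's probe sets, weighting the arrays, a robust eBayes with a mean trend, the replicate block and leaving out each array. Promoter windows are those of RefSeq on GRCh38.p14, matched by symbol.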

Additional observations from a re-analysis of the deposited data

How the results depend on the processing

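Over 69 genes (57 Rab and 12 regulator or effector genes) and 15 alternatives, 924 of 1020 values kept their direction and side of the threshold, or were uncalled both times. Normalization mattered most: the number of Rab genes that fell went from 16 to 9 after quantile and to 9 after cyclic loess normalization, and regulators and effectors that fell from 66 to 40 after quantile normalization. The median change of the Rab genes, 0.07, became -0.0829 without the 30% dimmest genes, which leaves 48 Rab genes, and -0.0587 without _x_at and _s_at probe sets, which leaves 51. Averaging all probe sets reversed RAB2A (-0.68), RAB5A (-0.14), RAB8B (0.13), RAB9B (0.37), RAB11A (-0.23), RAB11B (0.0683) and RAB35 (0.16). Quantile normalization turned RAB28 (0.0052), RAB8B (0.0341), RAB40B (0.0455) and RAB40C (0.15), and cyclic loess RAB8B (0.0316), RAB38 (0.0032) and RAB40B (0.0004). Without _x_at and _s_at probe sets RAB5A (-0.44), RAB40C (0.26) and CHML (0.35) turned. The cause was not tested. Leaving out 1 array gave 18 to 23 Rab rises and 14 to 19 falls, 37 to 44 and 58 to 67 for regulators and effectors, 34 to 45 and 46 to 56 for Rab probe sets, and a Rab median of 0.04 to 0.09. Without Ctrl array 2 the calls of RAB2A and RAB40B were lost (limma adjusted p = 0.0637 and 0.0593), and without Ctrl array 1 or 3 that of RAB8B (limma adjusted p = 0.0598 and 0.0599).

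With the replicate number as a block, 22 Rab genes rose and 17 fell, 42 and 66 regulators and effectors, and 42 and 55 Rab probe sets, with a Rab median of 0.07. Samples with the same number share only a number: their deviations correlated by 0.038, 0.030 and 0.027, in each case the best match. These correlations are very small and do not decide whether the samples were paired. Arrays give no read depth, and signals under about 4 are not known to lie above background. Background control probe sets had a median of 1.41 to 1.42 on the Ctrl and 1.43 to 1.45 on the CSF3 arrays. Some rich in G and C moved more: AFFX-BkGr-GC18_at read 3.003, 2.995 and 3.013 on the Ctrl and 3.263, 3.235 and 3.284 on the CSF3 arrays. AFFX-BkGr-GC22_at read 5.557, 5.455 and 5.545 on the Ctrl and 5.780, 5.823 and 5.899 on the CSF3 arrays. A signal over 4 is thus not by itself shown to lie above background. The part of such shifts in the rises, such as those of RAB6D at a mean signal of 1.72 and RAB6B at 4.81, was not tested.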

Other observations

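Probe sets shared by several genes, which entered no test, read 6 Rab genes that have none of their own. RAB24 shares 2 probe sets with MXD3, which gave 6.04, 6.02 and 6.04 on the Ctrl and 5.87, 5.78 and 5.78 on the CSF3 arrays for the one, and a difference of -0.15 for the other, with groups apart on both. RAB43 shares 2 with a readthrough transcript, and these gave 0.67 and -0.01. The single probe set of RAB4B, shared with a readthrough transcript, gave -0.03 with overlapping groups.

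RAB1A and RAB1B share 3 probe sets. On 2 of these the difference was 0.05 and 0.10, while the third read 5.45, 5.48 and 5.41 on the Ctrl and 4.15, 4.14 and 4.35 on the CSF3 arrays, a difference of -1.23 beside the -0.06 of RAB1A on its own brightest probe set. The 2 probe sets shared by RAB6A, RAB6C and RAB6D gave -0.34 and -0.42, and those of RAB40A and RAB40AL gave 0.30 and 0.03.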
